A study of Mus musculus with 12 samples.

Results

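Gene expression in marrow cells of mice given R-2-hydroxyglutarate (R-2HG) was set against that of untreated mice carrying cells of the same kind. The comparison used 6 of the 12 arrays of the series, the 3 titled as R-2HG and the 3 titled as empty vector. The cells were C57BL6 marrow immortalised by HoxA9, a homeobox protein under which myeloid progenitors go on dividing. They had been transduced with a retroviral empty vector that marks cells with GFP, and were transplanted into irradiated recipients of the same strain. The R-2HG recipients received 1 mg of R-2HG per day for 4 weeks, and the empty vector recipients received none. Vehicle, age and sex are not given in the labels. GFP-positive cells were sorted from the marrow 4 weeks after transplantation, and their total RNA was hybridised to Affymetrix mouse arrays. The remaining 6 arrays, used here only for direct contrasts with R-2HG, were 3 from cells with pSF91-IDH1mut-IRES-GFP (IDH1mut) and 3 from cells with pSF91-IDH1wt-IRES-EGFP (IDH1wt), both without R-2HG. All 4 groups therefore share HoxA9, GFP and transplantation. The sort selects transduced cells and no lineage.

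The description of the R-2HG samples mentions the IDH1mut vector, but their title, source and construct entries and the series design all give the empty vector, and these were followed. Whether each replicate is a different mouse is not stated, and the p-values therefore reflect only how much these arrays varied, which could be technical variation. All values are on a log2 scale that the submitters centred for each probe set. A value of 0 is therefore a middle array and not absence, levels cannot be compared between genes, and the labelled cell type could not be checked from the level of its markers. Each of 15858 genes was given the mean of its probe sets.

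R-2HG is made in quantity by cancer-associated mutants of the isocitrate dehydrogenases IDH1 and IDH2. It resembles 2-oxoglutarate and can inhibit enzymes that use it, among them the TET enzymes that oxidise 5-methylcytosine, the JmjC histone demethylases and the prolyl hydroxylases. In the myeloid lineage, neutrophil precursors fill their granules in a fixed order, with primary granules made first, secondary granules later and gelatinase granules last, while ribosome production and cell division wind down.

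R-2HG replicate 3 stood apart from replicates 1 and 2, so its values are given separately for many genes and lists. A change given only with its SE is that of all 3 R-2HG arrays. Differences between the values of a pair of arrays had an SD across genes of 0.152 for replicates 1 and 2, less than for any other pair of the 12 arrays, and 0.341 and 0.350 between replicate 3 and those 2. Within the other 3 groups it ran from 0.160 to 0.264. Replicate 3 lay at 0.327 to 0.369 from the empty vector arrays, and replicates 1 and 2 lay at 0.466 to 0.520. Replicates 1 and 2 were not identical, but whether they are independent samples cannot be told from the labels.

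With all 3 replicates, 2619 genes were higher in R-2HG than in empty vector (16.5% of all genes) and 3852 were lower (24.3%), together 6471 genes (40.8%), at an adjusted p under 0.05 (limma, Benjamini-Hochberg over 15858 genes, n = 3 arrays per group). Among the called genes 57 rose and 290 fell at least 2-fold. The number of higher genes depended on single arrays: it was 1661 without R-2HG replicate 1, 1599 without R-2HG replicate 2, 1675 without empty vector replicate 2, and 1648 when R-2HG replicates 1 and 2 were averaged and counted as 1 array. All R-2HG arrays lay above all empty vector arrays in 3763 genes (23.7%) and below them in 4718 (29.8%).

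Without replicate 3, 2982 genes were higher (18.8%) and 4036 lower (25.5%). With replicate 3 as the only R-2HG array, and its spread taken from the other groups, 541 were higher (3.41%) and 1283 lower (8.09%). Genes called in all 3 of these fits, with arrays that did not overlap, numbered 457 with higher values (2.88%) and 1240 with lower values (7.82%). In the median, called genes changed less in replicate 3 on the scale of the deposited values. For several gene lists below, that gap depended on the scaling. The 2619 higher genes had a median change of 0.44 in the mean of replicates 1 and 2 and of 0.31 in replicate 3 (log2), and the 3852 lower genes had -0.50 and -0.36. Replicates 1 and 2 lay beyond all empty vector arrays on the high side in 5183 genes, of which replicate 3 did so in 3763, lay inside the empty vector range in 1140 and on its other side in 280. On the low side the numbers were 5728, 4718, 686 and 324.

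**Figure D1:**
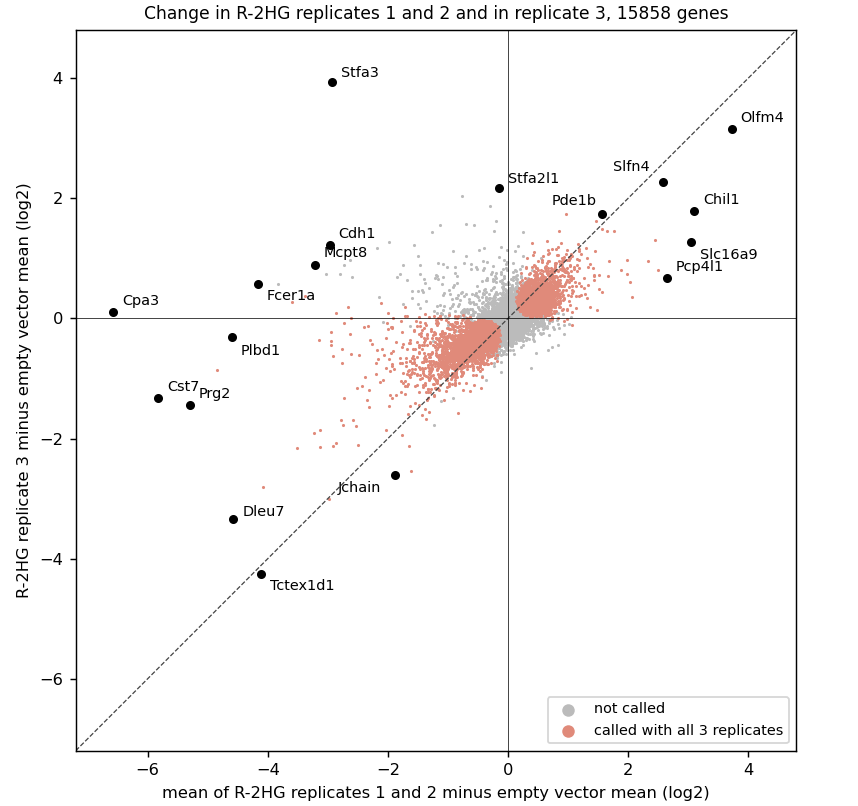
Each point is 1 of 15858 genes, with the mean of R-2HG replicates 1 and 2 minus the empty vector mean on the x axis and R-2HG replicate 3 minus the empty vector mean on the y axis (both log2); red points were called with all 3 replicates and the dashed line marks equal change. Olfm4 and Tctex1d1 lie near the line, while Cpa3 and Stfa3 are low in replicates 1 and 2 only.

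The largest rise among genes called in all 3 fits was that of Olfm4, which encodes olfactomedin 4, a glycoprotein of secondary granules. Its values were -1.01, -1.19 and -1.19 in empty vector replicates 1 to 3 and 2.63, 2.56 and 2.03 in R-2HG replicates 1 to 3, a log2 fold change of 3.54 ± 0.17 (SE, limma adjusted p = 1.05e-06). All 3 R-2HG arrays were high and none came near the empty vector range. Slfn4, a member of the schlafen family, stood at -1.46, -1.99 and -2.02 without and at 0.78, 0.75 and 0.45 with R-2HG. Pde1b, a calcium-dependent phosphodiesterase, was at -1.00, -0.88 and -1.01 against 0.61, 0.59 and 0.78, and rose by 1.62 ± 0.09 (limma adjusted p = 2.98e-06). Neat1, the long noncoding RNA on which paraspeckles are built, was at -0.99, -1.02 and -1.11 against 0.43, 0.43 and 0.59. In Pde1b and Neat1 replicate 3 was the highest of the 3 R-2HG arrays.

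Other large rises were weaker in replicate 3. Fbp1, a fructose-1,6-bisphosphatase of gluconeogenesis, was at -0.82, -0.85 and -0.72 in empty vector and at 1.61, 1.78 and 0.00 in R-2HG (1.93 ± 0.34, limma adjusted p = 0.000996). Slc16a9, a monocarboxylate transporter, reached 3.02, 2.95 and 1.20 against 0.15, -0.27 and -0.09. Its 3 probe sets rose by 1.57 to 2.96. The formin gene Fmnl2 rose by 2.06 ± 0.25, the axonemal dynein gene Dnah6 by 1.87 ± 0.29 and Treml4, a receptor of the TREM family, by 1.67 ± 0.22 (limma adjusted p at most 0.000515). In each of these 3 genes replicate 3 was the lowest R-2HG array and still lay above all empty vector arrays.

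Falls were larger than rises. Tctex1d1, whose product belongs to a family of dynein light chains, was at 1.36, 1.53 and 1.49 in empty vector and at -2.69, -2.61 and -2.79 in R-2HG, a log2 change of -4.16 ± 0.19 (limma adjusted p = 6.31e-07). The 3 R-2HG arrays were equally low. Dleu7 was at 1.58, 1.38 and 1.39 against -3.02, -3.23 and -1.89. Hnmt, which encodes the methyltransferase that inactivates histamine, was at 0.97, 0.96 and 0.76 against -2.08, -2.58 and -1.01. Replicate 3 was the least low array in Dleu7 and Hnmt. The 4 probe sets of Ptprg, a receptor tyrosine phosphatase, changed by -1.52 to -4.50, and its mean was at 2.52, 3.33 and 3.14 against 0.06, -0.03 and -0.02.

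**Figure D2:**
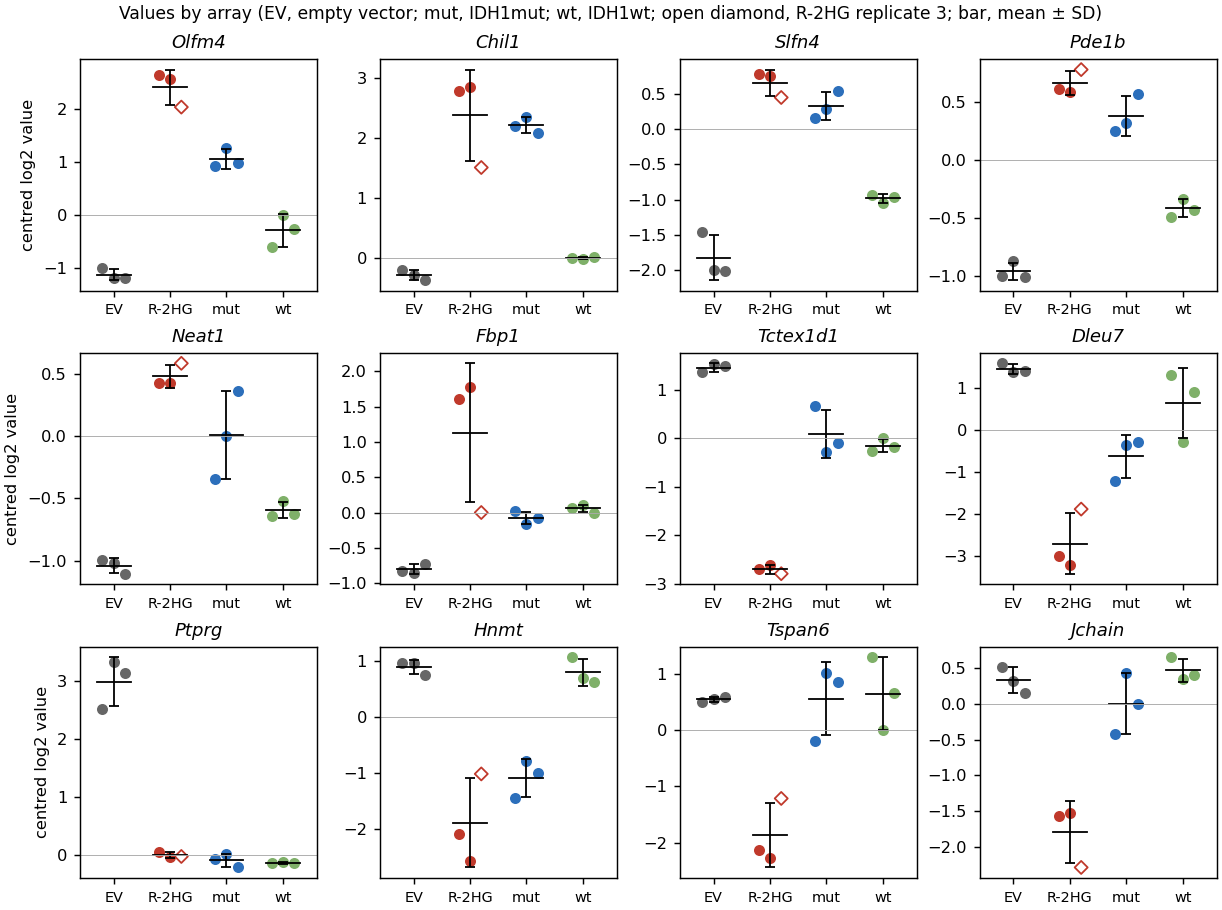
Centred log2 values (y axis) of 12 genes in each array, by group on the x axis; circles are arrays, the open diamond is R-2HG replicate 3, and black bars are the mean ± SD of 3 arrays. Olfm4, Tctex1d1 and Jchain lie beyond all 9 other arrays in all 3 R-2HG arrays, whereas the Chil1 values of IDH1mut (2.20, 2.35 and 2.08) lie inside the R-2HG range.

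Markers of mast cells and basophils were among the genes in which replicates 1 and 2 differed from replicate 3. Carboxypeptidase A3, a mast cell protease encoded by Cpa3, was at 0.25, 0.14 and 0.14 in empty vector and at -6.33, -6.48 and 0.28 in R-2HG. The high-affinity IgE receptor gene Fcer1a was at 0.42, -0.06 and 0.00 against -4.17, -3.93 and 0.70. The basophil protease gene Mcpt8 was at 0.38, 0.00 and 0.00 against -3.02, -3.18 and 1.02. In these 3 genes replicates 1 and 2 were far below the empty vector range and replicate 3 was above it. Of 12 mast cell and basophil markers, 8 were lower without replicate 3, 3 lower and 1 higher with all replicates, and 1 lower without replicate 1, 1 without replicate 2 and 1 with replicate 3 alone. Over all genes the shares lower were 25.5% without replicate 3, 24.3% with all replicates and 8.09% with replicate 3 alone, near the markers' shares with all replicates and with replicate 3 alone. Their median per array was 0.00 to 0.23 in empty vector, -1.55 and -1.54 in R-2HG replicates 1 and 2, and 0.36 in replicate 3.

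Eosinophil genes that fell were low in all 3 R-2HG arrays, and least low in replicate 3. Of 7 markers, 4 fell (57.1%, against 24.3% of all genes): Prg2 (major basic protein), Prg3, Epx (eosinophil peroxidase) and Siglecf. Prg2 was at 0.59, 1.42 and 1.47 against -4.12, -4.16 and -0.28, and Siglecf at -0.41, 0.17 and 0.10 against -2.85, -2.77 and -0.79. Of 19 dendritic cell and MHC class II genes, 8 were lower with all replicates, 12 without replicate 3 and 1 with replicate 3 alone (against 24.3%, 25.5% and 8.09% of all genes), and their median change was -1.22 in replicates 1 and 2 and 0.00 in replicate 3. The count of 8 dropped to 3 and 4 without R-2HG replicate 1 or 2, and to 5 without empty vector replicate 1 or 2. The dendritic cell lectin gene Cd209a was at 0.03, 0.09 and 0.00 against -2.94, -2.86 and -0.34. In bulk samples such as these, fewer cells of a type and less RNA per cell cannot be told apart.

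Of 18 erythroid markers, 0 were called by limma with all replicates and 1 had an unadjusted p under 0.05. Without replicate 3, 8 of the 18 were lower, where 25.5% of all genes were. With all replicates Hba-a2, a hemoglobin gene, differed by -0.23 ± 0.10 and Car2 by -1.43 ± 0.75. Car2, the red cell carbonic anhydrase, was at -1.01, -0.99 and -0.92 in empty vector and at -3.66, -3.54 and 0.00 in R-2HG. The median change of the erythroid list was -0.72 in replicates 1 and 2 and 0.74 in replicate 3, but a second quantile normalization turned the first of these to 0.14 and gave 0.93 for the second, so its direction in replicates 1 and 2 depends on the scaling. Of 19 B cell markers 5 were lower (26.3%, near the 24.3% of all genes), 1 without R-2HG replicate 1 or 2 and 2 without empty vector replicate 1, among them Vpreb1, the surrogate light chain gene, at 1.04, 0.20 and 0.00 against -1.26, -1.16 and -2.14. Empty vector replicate 1 had a B cell median of 1.04, against 0.00 in each of the other two. Of 14 neutrophil markers 6 rose and 4 fell (42.9% and 28.6%, against 16.5% and 24.3% of all genes), the latter 1 without R-2HG replicate 3 or empty vector replicate 2 or 3. With members moving both ways, their median was -0.06 to 0.00 in empty vector and 0.03 to 0.05 in R-2HG. The part of these other cell types in the changes below was not tested.

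**Figure D3:**
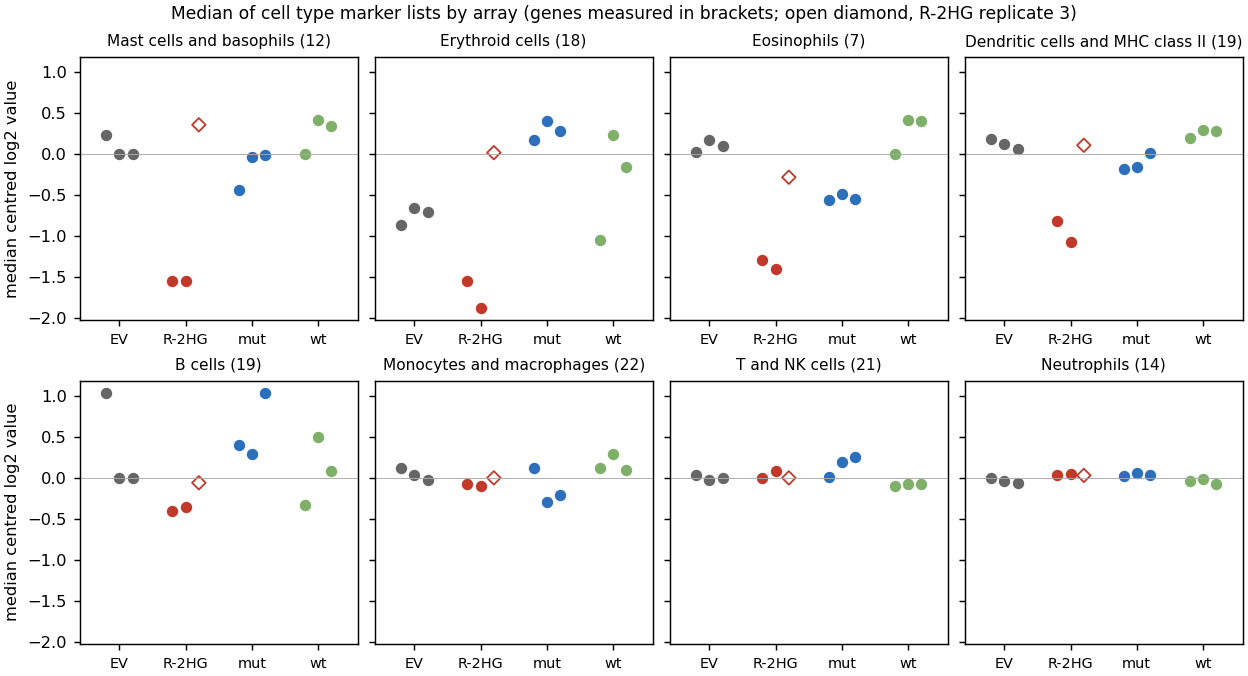
Median centred log2 value (y axis) of 8 cell type marker lists in each of the 12 arrays, by group on the x axis; the open diamond is R-2HG replicate 3 and the number of measured genes is in brackets. The medians of mast cell and basophil markers are -1.55 and -1.54 in R-2HG replicates 1 and 2 and 0.36 in replicate 3, while the neutrophil medians, over members that moved both ways, lie between -0.07 and 0.06 in all arrays.

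Replicate 3 lay on the other side of the empty vector range in 280 genes that were high in replicates 1 and 2. The same held for 324 genes that were low in them. The stefin gene Stfa3, which encodes a cysteine protease inhibitor of neutrophils, was at 0.00, 0.79 and 0.66 in empty vector, at -2.46 and -2.42 in R-2HG replicates 1 and 2, and at 4.42 in replicate 3. Its relative Stfa2l1, chosen after its values were seen, was far from the empty vector range in replicate 3 only. It was at -0.41, -0.12 and -0.29 against -0.46, -0.38 and 1.90. The E-cadherin gene Cdh1 was at 0.73, 0.40 and 0.27 against -2.40, -2.61 and 1.68. None of these 3 genes passed the test with all replicates. Replicate 3 alone lay above all empty vector arrays, with replicates 1 and 2 inside their range, in 350 genes, and below them in 376. The former included Gzmb (granzyme B), at 1.40 in replicate 3 against -0.46 and -0.37 in replicates 1 and 2, and the interferon-induced gene Ifit1, at 0.73 against -0.29 and -0.27.

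Neutrophil granule genes divided by the stage at which they are made. Of 18 secondary granule genes 12 rose (66.7%, against 16.5% of all genes), with a median log2 change of 0.39. Chil1, which encodes a chitinase-like protein, was at -0.20, -0.29 and -0.37 in empty vector and at 2.78, 2.85 and 1.51 in R-2HG (2.67 ± 0.26, limma adjusted p = 6.01e-05). The collagenase gene Mmp8 was at -0.32, -0.88 and -0.88 against 0.72, 0.72 and 0.16, and lactoferrin (Ltf) at -0.15, -0.35 and -0.34 against 0.41, 0.41 and 0.20. The median change of the list was 0.48 in replicates 1 and 2 and 0.19 in replicate 3. Camp and Ngp, secondary granule genes chosen after their values were seen, did not pass the test, at 0.04 ± 0.06 and 0.03 ± 0.06.

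The promoters of the top pair of this group are shown because most secondary granule genes share a short motif there. C/EBP transcription factors drive late granulocyte genes and bind sites of the form TTNCNNAA, which was searched on both strands of the 250 bases before each start in RefSeq (GRCm38.p6). It occurred in 11 of the 15 members with a promoter in the table (73.3%), against 33.6% of 12658 genes on the array and 36.8% of 32851 promoters of the same length. Of the 11 called members with a promoter, 9 held it. Capitals mark the match, 227 bases before the start of Olfm4 (chr14:80000052-80000301, + strand) and 52 before that of Chil1 (chr1:134181906-134182155, + strand), and neither overlapped a match to the other motifs searched. A match describes the letters only.
Olfm4: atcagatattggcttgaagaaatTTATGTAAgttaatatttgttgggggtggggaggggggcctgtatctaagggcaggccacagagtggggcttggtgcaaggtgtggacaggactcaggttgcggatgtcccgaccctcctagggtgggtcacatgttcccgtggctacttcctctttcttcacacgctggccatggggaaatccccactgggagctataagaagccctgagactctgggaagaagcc
Chil1: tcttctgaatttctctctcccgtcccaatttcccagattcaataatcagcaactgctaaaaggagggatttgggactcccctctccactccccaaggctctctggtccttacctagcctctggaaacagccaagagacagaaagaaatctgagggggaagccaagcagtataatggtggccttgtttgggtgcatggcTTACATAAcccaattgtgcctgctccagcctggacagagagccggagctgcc

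Late neutrophil genes rose as well, and more so in replicate 3. Of 25 gelatinase granule and late surface genes 10 rose and 2 fell with all replicates, and 13 were higher with replicate 3 alone (16.5% and 3.41% of all genes were higher in these fits), with a median change of 0.15 in replicates 1 and 2 and 0.53 in replicate 3. Neither fall was called by limma without R-2HG replicate 1 or 2 or without any 1 empty vector array (1 or 2 at an unadjusted p under 0.05). Padi4, the peptidylarginine deiminase that citrullinates histones, was at -0.42, -0.60 and -0.52 in empty vector and at 0.69, 0.67 and 0.32 in R-2HG (1.07 ± 0.10, limma adjusted p = 4.7e-05). The formyl peptide receptor gene Fpr2, the integrin gene Itgam and the gelatinase gene Mmp9 rose by 0.96 ± 0.11, 0.67 ± 0.08 and 0.71 ± 0.10. The receptor for G-CSF (Csf3r) was at -0.24, -0.54 and -0.42 against 0.27, 0.29 and 0.56, so replicate 3 was the highest array. Of 15 NADPH oxidase and bactericidal genes 7 rose and 2 fell, the latter 1 in each of those 5 fits. Alox5, the first enzyme of leukotriene synthesis, was at 0.10, 0.00 and -0.03 against -1.32, -1.52 and -0.21, while Lta4h and Alox5ap of the same pathway rose by 0.73 ± 0.12 and 0.32 ± 0.06. With replicate 3 as the only R-2HG array Lta4h and Alox5ap changed by 0.535 and 0.266.

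Primary granule genes showed the opposite pattern, with 10 of 15 lower (66.7%, against 24.3% of all genes) and 1 higher. Without replicate 3, 7 were lower, where 25.5% of all genes were. With only the 6 arrays fitted 7 were lower, where 3602 of 15858 genes were. The median change was -0.28 in replicates 1 and 2 and -0.54 in replicate 3. Elane (neutrophil elastase) was at 0.16, 0.41 and 0.48 in empty vector and at 0.05, 0.10 and -0.39 in R-2HG, and Mpo (myeloperoxidase) at 0.11, 0.19 and 0.13 against 0.00, 0.00 and -0.32. Elane, Mpo and the protease gene Prtn3 were called with all replicates and with replicate 3 alone but not without it (limma adjusted p = 0.0542, 0.101 and 0.064). Nor did they pass without empty vector replicate 2 (limma adjusted p = 0.0668, 0.101 and 0.0663) or 3 (0.0761, 0.0713 and 0.0882), and Mpo also not without empty vector replicate 1 (limma adjusted p = 0.0538). Ctsg (cathepsin G) was low in every R-2HG array, at -0.30, -0.28 and -0.36 against 0.32, 0.32 and 0.29. Nkg7, which is also on the list of T and NK cell markers, fell as well. Several members that fell are no granule proteins themselves, namely Ms4a3, a membrane protein of granulocyte precursors, Calr (calreticulin) and Jchain, the joining chain of immunoglobulins.

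Genes of stem and progenitor cells fell in 16 of 30 cases (53.3%, against 24.3% of all genes) and rose in 3 (10%, against 16.5%), with a median of -0.41 (-0.47 in replicates 1 and 2, -0.18 in replicate 3). Cd34 was at 0.08, 0.00 and 0.12 in empty vector and at -1.05, -1.00 and -0.64 in R-2HG, and Cd27 fell by 1.54 ± 0.20. Among 31 cytokine receptors 9 rose (29%) and 7 fell (22.6%, near the 24.3% of all genes), the latter 4 in each fit without R-2HG replicate 1 or 2 or without any 1 empty vector array. Il3ra, the interleukin-3 receptor, was at 0.26, 0.53 and 0.63 against -0.53, -0.51 and -0.62, and the stem cell factor receptor Kit fell by 0.52 ± 0.11, while Csf2ra, a subunit of the GM-CSF receptor, rose by 0.59 ± 0.08. Of 30 myeloid transcription factor genes 5 rose (16.7%) and 9 fell (30%), near the 16.5% and 24.3% of all genes. The 5 became 3 without R-2HG replicate 1 or empty vector replicate 2 or 3. Cebpa fell by 0.41 ± 0.08 and Stat5a fell by 0.91 ± 0.14, while Id2, Stat3, Nr4a1 and Bcl6 were among those that rose. Hoxa9 (0.07 ± 0.08, limma adjusted p = 0.495) and its partner Meis1 (-0.06 ± 0.16, adjusted p = 0.804) did not pass the test.

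Interferon-induced genes rose in 19 of 39 cases (48.7%, against 16.5% of all genes), and 3 fell. The median change was 0.20 in replicates 1 and 2 and 0.41 in replicate 3. Against IDH1wt 8 of the 39 were higher in R-2HG and 2 lower, where 21.4% and 23% of all genes were. Ifit3, which encodes an antiviral RNA-binding protein, was at -0.69, -0.87 and -0.81 in empty vector and at 0.18, 0.16 and 0.94 in R-2HG (1.22 ± 0.19, limma adjusted p = 0.000484). Samhd1, a dNTP hydrolase, was at -0.44, -0.49 and -0.58 against 0.26, 0.23 and 0.29. Oas2 and Rsad2 rose by 0.88 ± 0.14 and 0.73 ± 0.12, each highest in replicate 3. The largest of the 3 falls, of which 1 passed without R-2HG replicate 1 or 2 or empty vector replicate 2, was that of Ifitm2, at -0.66 ± 0.10. Of the 6 schlafen genes 4 rose and 1 fell, the fall not called by limma with any 1 array of these groups left out (1 at an unadjusted p under 0.05). Among 9 GTPases induced by interferon gamma, Gbp3 fell by 1.07 ± 0.14 and 1 other gene rose but was not called without empty vector replicate 1. In that fit 2 were lower. Without R-2HG replicate 3, 5 were lower, where 25.5% of all genes were. The median change was -0.31 in replicates 1 and 2 and 0.32 in replicate 3.

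The Ifit3 promoter is shown because it carries the repeat that interferon-activated factors bind. The core GAAANNGAA, read on both strands, occurred in 11 of 29 promoters of the list (37.9%), against 7.39% of genes on the array and 7.13% of all promoters. Of the 17 members with a promoter that were called in either direction, 8 held the core, among them Ifitm2, which fell. Ifit3 (chr19:34583279-34583528, + strand) held it 3 times on the opposite strand, 155, 121 and 102 bases before its start, and 1 of these matches overlapped a match to the C/EBP motif.
Ifit3: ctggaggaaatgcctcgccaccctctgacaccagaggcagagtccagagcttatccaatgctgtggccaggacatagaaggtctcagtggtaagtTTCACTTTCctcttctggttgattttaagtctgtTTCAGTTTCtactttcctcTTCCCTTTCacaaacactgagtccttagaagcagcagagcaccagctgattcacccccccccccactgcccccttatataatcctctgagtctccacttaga

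Genes that build ribosomes fell together. All 18 measured snoRNP proteins and nucleolar factors fell (24.3% of all genes), with a median of -0.74 (-0.87 in replicates 1 and 2, -0.41 in replicate 3). Nhp2, a core protein of the particles that pseudouridylate ribosomal RNA, was at 0.40, 0.32 and 0.30 in empty vector and at -0.81, -0.72 and -0.41 in R-2HG (log2 change of -0.99 ± 0.10, limma adjusted p = 7.04e-05), and its assembly factor Naf1 fell by 0.93 ± 0.09. Of 36 genes for assembly of the small subunit 32 fell and 1 (Nol6) rose, and of 36 for the large subunit 25 fell. The rise was not called by limma without R-2HG replicate 1 or 2 or without any 1 empty vector array (1 at an unadjusted p under 0.05). Pno1 was at 0.30, 0.11 and 0.16 against -0.94, -1.09 and -0.60. Of 23 genes of RNA polymerases I and III 12 fell, including Rrn3, the initiation factor of polymerase I, at 0.22, 0.24 and 0.24 against -0.76, -0.54 and -0.29, and Polr2h, a subunit shared by the nuclear RNA polymerases, at 0.40, 0.49 and 0.33 against -0.80, -0.92 and -0.43. Replicate 3 was the least low R-2HG array in Nhp2, Pno1, Rrn3 and Polr2h and lay below every empty vector array. The median change in replicates 1 and 2 and in replicate 3 was -0.51 and -0.33 for the small subunit. It was -0.38 and -0.25 for the polymerases. After a second quantile normalization these pairs were -0.37 and -0.35, and -0.25 and -0.26, so their gaps depend on the scaling. The nucleolar list still differed, at -0.63 and -0.46.

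Myc, whose product activates many genes of ribosome production through the E-box CACGTG, was at 0.42, 0.37 and 0.38 in empty vector and at -0.98, -0.91 and -0.42 in R-2HG, a log2 change of -1.16 ± 0.13 (limma adjusted p = 9.1e-05). Its partner Max rose by 0.32 ± 0.07. The Rrn3 promoter (chr16:13780449-13780698, + strand) is shown because it holds the E-box 2 times, 215 and 48 bases before the start, in capitals. Across the lists the E-box was found in 3 of 20 promoters for polymerases I and III (15%), 3 of 29 for the small subunit (10.3%), 3 of 30 for the large subunit (10%) and 0 of 14 for snoRNP proteins. It occurred in 9.15% of genes on the array and 6.02% of all promoters, so the shares of the subunit lists lay near that of the array.
Rrn3: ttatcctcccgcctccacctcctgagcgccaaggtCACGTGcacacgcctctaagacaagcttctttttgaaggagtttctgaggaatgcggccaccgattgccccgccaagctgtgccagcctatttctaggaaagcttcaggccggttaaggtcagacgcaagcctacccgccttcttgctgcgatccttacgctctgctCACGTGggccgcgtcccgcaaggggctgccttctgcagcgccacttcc

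Translation genes fell with them. Of 46 cytosolic ribosomal proteins 29 fell and 2 rose, with a median of -0.23, and 6 fell with replicate 3 alone. Of all genes 24.3% fell with all replicates and 8.09% with replicate 3 alone. Of 19 aminoacyl-tRNA synthetases 16 fell and of 35 initiation and elongation factors 25 fell. The lysyl-tRNA synthetase gene Kars was at 0.31, 0.23 and 0.31 in empty vector and at -0.46, -0.49 and -0.24 in R-2HG, and Eif1a, an initiation factor, at 0.39, 0.34 and 0.28 against -0.72, -0.71 and -0.32. The proteasome (21 of 31 lower, 1 higher) and the cytosolic chaperonin with prefoldin (11 of 14 lower) fell too. The proteasome gene called higher was not called by limma with any 1 R-2HG array left out (1 at an unadjusted p under 0.05).

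**Figure D4:**
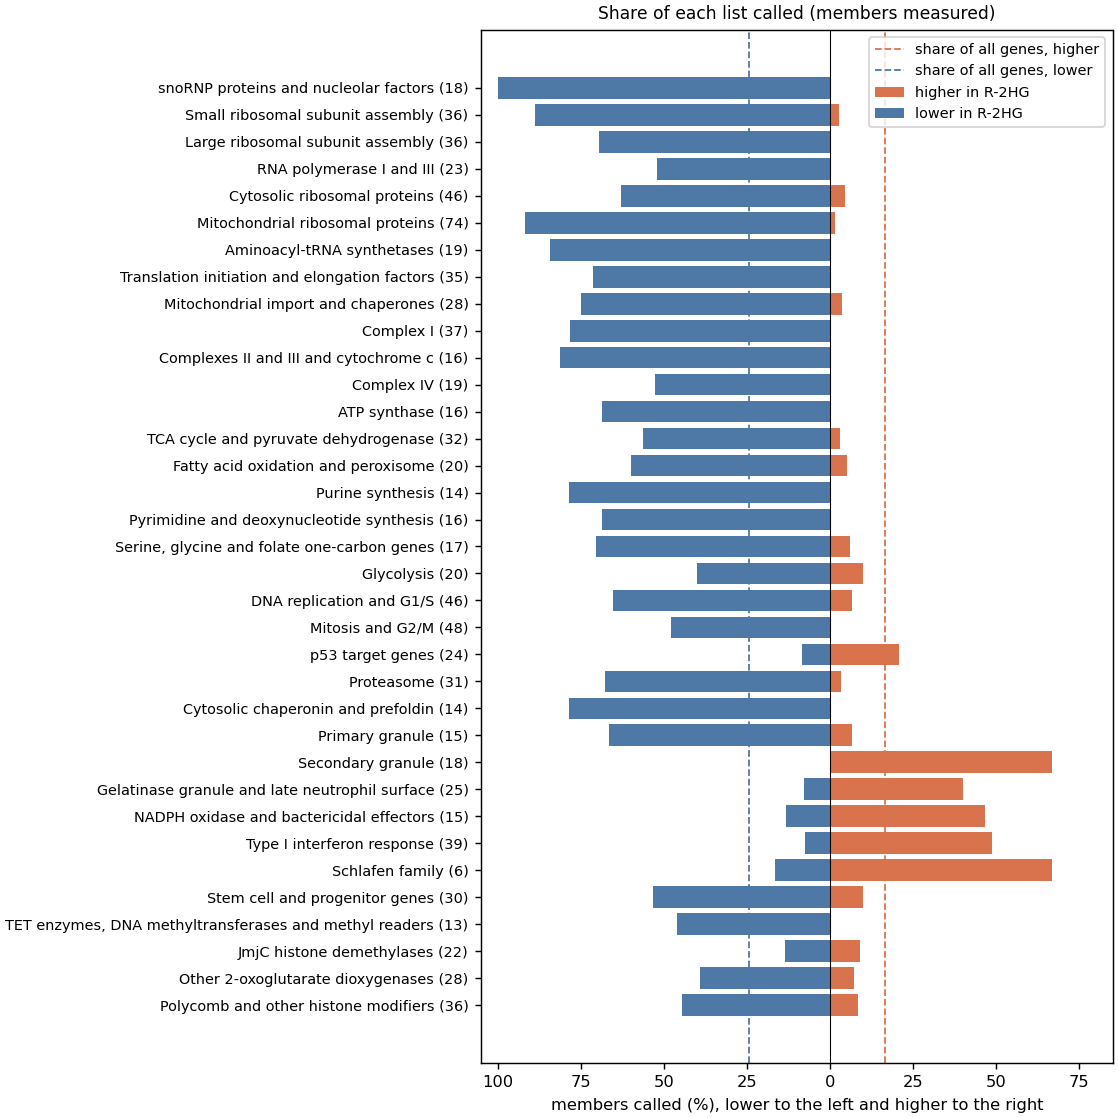
Percentage of measured members of each list shown that were called in R-2HG against empty vector (x axis), lower to the left in blue and higher to the right in orange, with the number measured in brackets. Dashed lines mark 16.5% of all genes higher and 24.3% lower. All 18 snoRNP and nucleolar genes lie on the low side, and 12 of 18 secondary granule genes on the high side.

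Mitochondrial genes fell broadly. Of 74 mitochondrial ribosomal proteins 68 fell and 1 rose, where 24.3% of all genes fell, with a median of -0.46 (-0.49 in replicates 1 and 2, -0.37 in replicate 3). After a second quantile normalization the median was -0.39 in replicates 1 and 2 and -0.39 in replicate 3, so that difference depends on the scaling. Mrps30 was at 0.17, 0.12 and 0.15 in empty vector and at -0.45, -0.41 and -0.47 in R-2HG and was as low in replicate 3 as in the others. Of the respiratory chain, 29 of 37 complex I genes, 13 of 16 of complexes II and III with cytochrome c, 10 of 19 of complex IV and 11 of 16 of ATP synthase fell. Single arrays moved the last pair of counts: complex IV dropped to 6 without R-2HG replicate 1 and 5 without empty vector replicate 3, and ATP synthase to 5 and 7 without R-2HG replicate 1 or 2 and 6 and 7 without empty vector replicate 2 or 3. The complex I assembly factor gene Ndufaf2 was at 0.52, 0.62 and 0.32 against -0.54, -0.62 and -0.48, and Sdhaf1, an assembly factor of succinate dehydrogenase, at 0.20, 0.25 and 0.31 against -0.65, -0.71 and -0.53. Tomm40, the pore through which proteins enter mitochondria, was at 0.32, 0.18 and 0.30 against -0.93, -0.88 and -0.77, a log2 change of -1.13 ± 0.07 (limma adjusted p = 3.51e-06). Of its list of import and chaperone genes 21 of 28 fell and 1 rose.

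In the tricarboxylic acid cycle and pyruvate dehydrogenase 18 of 32 genes fell, where 24.3% of all genes did, and 1 rose. The rise was not called by limma without R-2HG replicate 1 (1 at an unadjusted p under 0.05), and 2 were higher without R-2HG replicate 3. Idh2, the mitochondrial isocitrate dehydrogenase, was at 0.31, 0.50 and 0.41 in empty vector and at -0.49, -0.49 and -0.24 in R-2HG, a log2 change of -0.81 ± 0.09 (limma adjusted p = 7.97e-05), whereas Idh1 changed by 0.12 ± 0.11 (adjusted p = 0.401). D2hgdh, the dehydrogenase that removes R-2HG, did not pass the test (-0.16 ± 0.09, limma adjusted p = 0.189). Of 18 genes for 2-hydroxyglutarate, glutamate and branched-chain amino acids 10 fell, and 8 fell and 2 rose without replicate 3. Of the branched-chain ketoacid dehydrogenase, Bckdha was at 0.39, 0.56 and 0.69 against -0.22, -0.32 and -0.12, and Bckdhb and Dbt changed by -0.86 ± 0.13 and -0.72 ± 0.09. In fatty acid oxidation 12 of 20 genes fell, led by Hadh, Eci1 and Echs1, and 1 rose. That rise was not called by limma without R-2HG replicate 1 or 2 or empty vector replicate 2 (1 at an unadjusted p under 0.05). Of 20 glycolytic genes 8 fell and 2 rose. Without R-2HG replicate 1 or 2 limma called 5 lower and 0 higher (2 at an unadjusted p under 0.05), and without empty vector replicate 1 or 2 it called 1 higher.

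Genes that supply nucleotides and one-carbon units fell in most cases, where 24.3% of all genes fell. The counts were 11 of 14 for purine synthesis, 11 of 16 for pyrimidine and deoxynucleotide synthesis and 12 of 17 for serine, glycine and folate genes. In the last of these lists 1 gene rose. It was not called by limma without R-2HG replicate 1 or 2 or empty vector replicate 2 or 3 (1 at an unadjusted p under 0.05). Dut, the enzyme that removes dUTP, was at 0.21, 0.36 and 0.28 in empty vector and at -0.38, -0.37 and -0.39 in R-2HG. Psph, the last enzyme of serine synthesis, was at 0.49, 0.67 and 0.56 against -0.29, -0.29 and -0.31, and Phgdh, the first, fell by 0.85 ± 0.10. In Dut and Psph replicate 3 was as low as replicates 1 and 2.

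Among 46 genes of DNA replication 30 fell (65.2%, against 24.3% of all genes) and 3 rose, and among 48 mitotic genes 23 fell, or 15 without empty vector replicate 2. Mcm2, of the replicative helicase, was at 0.17, 0.19 and 0.20 in empty vector and at -0.42, -0.48 and -0.27 in R-2HG. E2f2, a transcription factor of the G1/S transition, rose by 0.48 ± 0.11. Of 22 cyclins, CDKs and CDK inhibitors 3 rose (13.6%, against 16.5% of all genes), namely Cdk2, Ccnd3 and Cdkn2d. In the same list 7 fell (31.8%, against 24.3%), or 4 without empty vector replicate 2. Cdk4 and Cdk6, kinases of the G1 phase, changed by -0.99 ± 0.11 and -0.69 ± 0.13 (Cdk6 by -0.573 in replicate 3). Cdkn2a, whose products restrain the cell cycle, fell by 1.38 ± 0.21, while Cdkn1a (-0.10 ± 0.10, limma adjusted p = 0.445) and Cdkn2b (0.08 ± 0.13, adjusted p = 0.643) did not pass. Of 24 targets of p53 5 rose and 2 fell, counts of 20.8% and 8.33% that stand beside 16.5% and 24.3% of all genes. The 5 became 3 without R-2HG replicate 2 and 2 without empty vector replicate 2 or 3, and limma called 0 lower without R-2HG replicate 1 or 2 or without any 1 empty vector array (0 to 3 at an unadjusted p under 0.05). Of 15 apoptosis regulators of the BCL2 family 1 rose (6.67%) and 3 fell (20%), below the 16.5% and 24.3% of all genes. Mcl1, a survival factor of neutrophils, rose by 0.48 ± 0.07 and Bcl2 fell by 0.64 ± 0.11 (a change of -0.494 in replicate 3). Neither Mcl1 nor Bcl2 passed when the probe set with the highest SD stood for the gene.

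**Figure D5:**
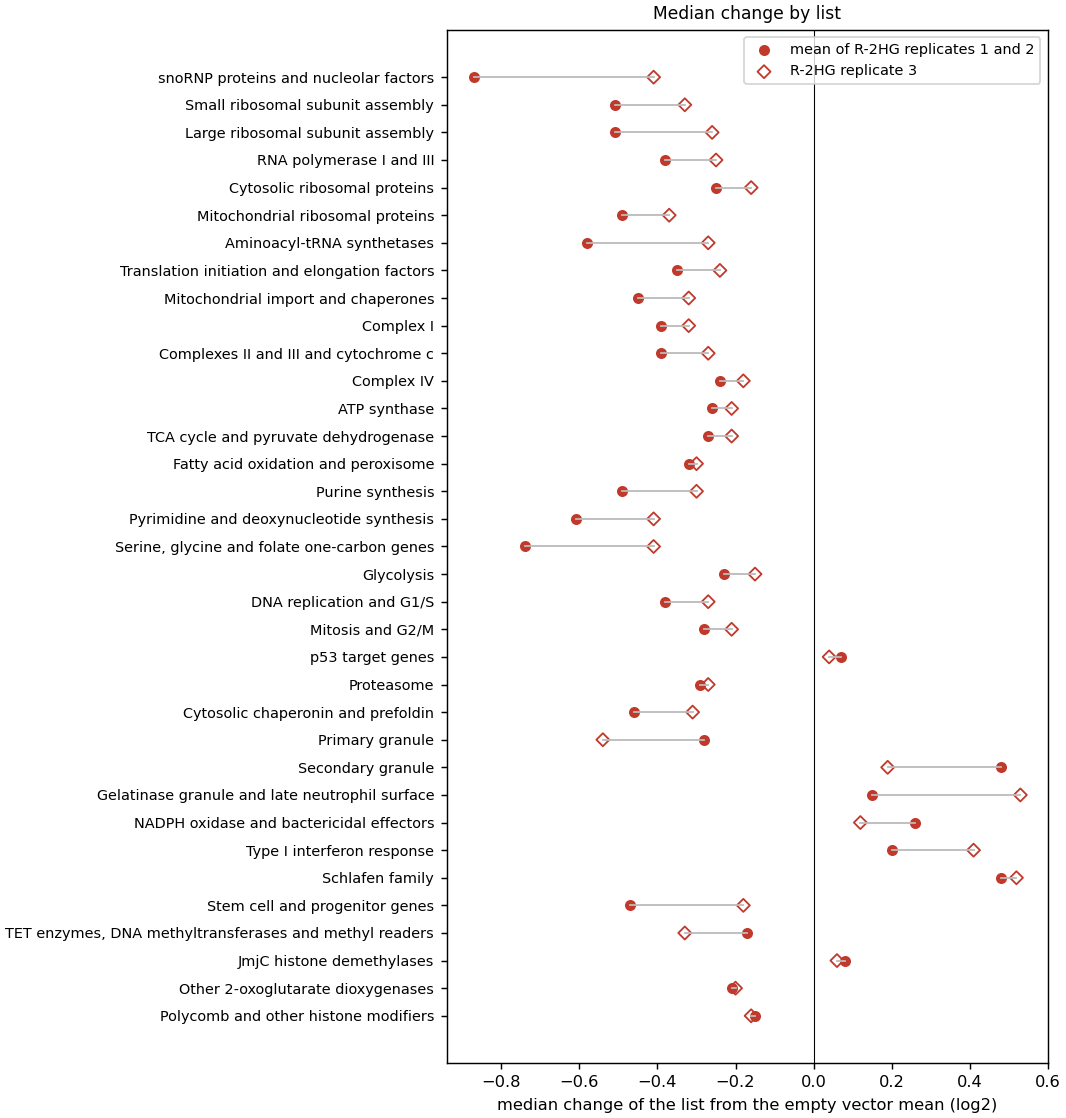
Median change of each list shown from the empty vector mean (x axis, log2) in the mean of R-2HG replicates 1 and 2 (filled circles) and in replicate 3 (open diamonds). Replicate 3 is less low for the nucleolar list (-0.41 against -0.87), lower for primary granule genes (-0.54 against -0.28) and higher for late neutrophil genes (0.53 against 0.15).

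Genes of enzymes that use 2-oxoglutarate changed unevenly at the RNA level. Of 28 dioxygenases other than TET and JmjC proteins 11 fell and 2 rose, where 24.3% and 16.5% of all genes did. Limma called 0 higher without R-2HG replicate 1 or 2 or empty vector replicate 2 or 3 (1 to 3 at an unadjusted p under 0.05). P4ha1, a collagen prolyl hydroxylase, was at 0.31, 0.34 and 0.35 in empty vector and at -0.96, -0.97 and -0.51 in R-2HG (log2 change of -1.15 ± 0.11, limma adjusted p = 5.09e-05), and Alkbh7 and Alkbh6 changed by -0.98 ± 0.14 and -0.70 ± 0.10. Egln1, the main oxygen-sensing prolyl hydroxylase, was at 0.39, 0.45 and 0.40 against -0.29, -0.44 and 0.11, and Egln3 did not pass (-0.25 ± 0.11, limma adjusted p = 0.0898). Among 22 JmjC demethylases 2 rose, or 1 without R-2HG replicate 1 or empty vector replicate 2, and 3 fell, shares of 9.09% and 13.6% that lay below those of all genes.

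Of 13 TET, DNA methyltransferase and methyl reader genes 6 fell (46.2%, against 24.3% of all genes). Tet1 was at 0.04, 0.08 and 0.11 in empty vector and at -0.53, -0.69 and -0.37 in R-2HG, but its 4 probe sets ranged from -1.78 to 0.19. Tet2 (0.18 ± 0.10, limma adjusted p = 0.153) and Tet3 (-0.03 ± 0.17, adjusted p = 0.918) did not pass. Dnmt3a fell by 0.53 ± 0.09 over 5 probe sets from -1.06 to -0.03, Dnmt1 fell by 0.38 ± 0.07 and Uhrf1, which brings Dnmt1 to replicating DNA, fell by 0.56 ± 0.08. With replicate 3 as the only R-2HG array Dnmt3a and Dnmt1 changed by -0.385 and -0.332. Among polycomb and other histone modifiers 16 of 36 fell (44.4%) and 3 rose, the latter led by Phf1. The 16 dropped to 9 and 8 without R-2HG replicate 1 or 2 and to 10 without empty vector replicate 2. Phf1, a partner of the polycomb methyltransferase, was at -0.43, -0.55 and -0.52 against 0.47, 0.39 and 0.29.

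Of 16 heat shock genes 9 fell (56.2%, against 24.3% of all genes), 4 without R-2HG replicate 1 or 2 and 5 without empty vector replicate 1. The inducible chaperone gene Hspa1a was at 3.90, 3.91 and 3.77 in empty vector and at 0.38, 0.32 and 1.70 in R-2HG, a log2 change of -3.06 ± 0.32 (limma adjusted p = 7.26e-05). Of 19 immediate early genes, induced within minutes of a stimulus, 3 fell and 3 rose, 15.8% in each direction against 24.3% and 16.5% of all genes. Jun was at 1.10, 1.35 and 1.35 against -0.07, -0.19 and 0.55, and Egr1 and Fosb changed by -0.92 ± 0.19 and -1.20 ± 0.28, while the nuclear receptor gene Nr4a1 rose by 0.94 ± 0.22. With replicate 3 as the only R-2HG array Egr1, Fosb and Nr4a1 changed less, by -0.679, -0.511 and 0.534. In Hspa1a and Jun replicate 3 lay between the other R-2HG arrays and empty vector. Of 29 genes of the ATF4 and ER stress response 15 fell (51.7%) and 3 rose, but without R-2HG replicate 1 limma called 0 higher (4 at an unadjusted p under 0.05), and without empty vector replicate 2 or 3 it called 1. The ER chaperone genes Pdia4 and Manf changed by -1.17 ± 0.13 and -0.94 ± 0.10.

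The direct contrasts showed where R-2HG arrays differed from the IDH1 groups. Against IDH1mut 2502 genes were higher (15.8%) and 3212 lower (20.3%). Without R-2HG replicate 1 or 2 the total of 5714 dropped to 3376 and 3109, and with replicate 3 as the only R-2HG array to 336. Against IDH1wt 3391 were higher (21.4%) and 3644 lower (23%). All 3 R-2HG arrays lay beyond the 9 others, with a call in all 3 contrasts, in 1011 genes on the high side (6.38%) and 1543 on the low side (9.73%).

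The genes named next lay beyond all 9 other arrays. Jchain was at -1.57, -1.52 and -2.28 in R-2HG, -0.42, 0.43 and 0.00 in IDH1mut, and 0.52, 0.32 and 0.15 in empty vector. Aldh1a7, an aldehyde dehydrogenase gene, was at -3.06, -3.20 and -1.81 against 0.87, 0.94 and 0.54 in IDH1mut, a difference of -3.48 ± 0.30 (limma adjusted p = 7.31e-05). The tetraspanin gene Tspan6 and the GTPase gene Gem differed from IDH1mut by -2.44 ± 0.37 and -2.82 ± 0.34. Prdm16, a zinc finger regulator of transcription, was at 2.03, 2.07 and 0.62 in R-2HG, -0.86, -0.77 and -0.42 in IDH1mut, and -0.01, -0.06 and 0.12 in empty vector, with probe sets that rose by 0.29 to 3.08 against empty vector. Slc16a9 stood 2.48 ± 0.36 above IDH1mut.

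Gene lists are given next for R-2HG against IDH1mut, where 15.8% of all genes were higher and 20.3% lower. Of the 18 secondary granule genes 1 was higher and 3 lower in R-2HG than in IDH1mut, with a median difference of 0.01, and Chil1 differed by 0.17 ± 0.26 (limma adjusted p = 0.631). Of 25 late neutrophil genes 13 were lower than in IDH1mut. Of 18 snoRNP and nucleolar genes 14 were lower, with a median difference of -0.49, and of 32 tricarboxylic acid cycle and pyruvate dehydrogenase genes 14, or 9 without R-2HG replicate 1 or 2. Of 18 erythroid markers 13 were lower in R-2HG, while the IDH1mut arrays had medians of 0.17 to 0.41. That count was 1 without R-2HG replicate 1 or 2 and 6 without IDH1mut replicate 2 or 3. Cdkn2a was 0.99 ± 0.21 higher in R-2HG than in IDH1mut, where it stood at -1.54, -1.60 and -1.50, although it fell against empty vector. Myc and Hoxa9 differed from IDH1mut by -0.70 ± 0.13 and 0.32 ± 0.08.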

How the data were processed

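Total RNA from sorted marrow cells was measured on 12 Affymetrix arrays, 3 in each of 4 groups. The authors deposited log2 values made with RMA (per the submitters' processing notes; version not given in the sources used here) and centred per probe set. For the reference of the centring, the build and any filters the same holds. The table held 32533 probe sets with values from -6.48 to 4.93, and 83.6% of them held an exact 0. The platform annotation gave 28805 probe sets 1 symbol, 757 several and 2971 none; 28674 matched a RefSeq gene of GRCm38.p6 by Entrez identifier and 0 symbols changed. Their mean per symbol gave 15858 genes, 8510 of them from 1 probe set.

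Groups came from the titles. One coefficient per group was fitted over 12 arrays with limma 3.58.1 in R 4.3.3 (lmFit, eBayes, two-sided; 8 residual and 3.96 prior degrees of freedom), and p-values were adjusted by Benjamini-Hochberg over the 15858 genes, and 0.05 was the threshold. A lone array was assumed to vary like the other groups. The number of arrays limits the precision. The script was checked on simulated data with 200 changed genes. That check required most of the largest changes put in to be recovered and set no requirement for the smaller ones. Alternatives covered normalization, gene summary, filter, weights, samples, replicate block and arrays left out; averaging R-2HG replicates 1 and 2 was chosen after seeing the data.

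The members, gene lists and tests were chosen with earlier results of these data known, so list counts carry no test and are read against the shares of all genes. Genes were named by rule: (a) the largest changes called with all replicates, without replicate 3 and with replicate 3 alone; (b) the largest changes in replicates 1 and 2 that replicate 3 did not share; (c) the largest in replicate 3 alone; (d) the largest beyond all other groups; (e) the largest against IDH1mut; (f) up to 4 members per list and direction with the smallest p; and (g) enzymes of 2-hydroxyglutarate metabolism, its targets and cell cycle genes. Motifs were searched on both strands of the 250 bases before each start. Figures were drawn with matplotlib 3.10.9. Same-numbered arrays of R-2HG and empty vector did not deviate together (correlations of -0.11 to 0.04 over 3 pairs), so the numbers were not taken to pair samples.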

Additional observations from a re-analysis of the deposited data

How the results depend on the processing

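Against empty vector, the 6471 calls were 4588 to 7018 with 1 array left out, 1824 with replicate 3 as the only R-2HG array, 1627 with a fold change of at least 1.5, 4662 with R-2HG replicates 1 and 2 averaged, 5909 after a second quantile normalization, 9174 with array weights, 6183 with the replicate number as a block (replicate block) and 11377 of 28805 single probe sets. Against IDH1mut, 5714 became 3109 to 6503, 336, 1031 and 3291 in the first 4 of these, 5346 with the replicate block and 9793 probe sets. Against IDH1wt, 7035 became 4869 to 7508, 1610, 1676 and 5005, then 6767 and 11714. The replicate block ended no call among the 102 called genes named here. The log2 change of Cpa3 turned to 0.11 and that of Stfa3 to 3.93 with replicate 3 as the only R-2HG array, and that of Tet1 to 0.19 in 1 of its probe sets. With replicate 3 as the only R-2HG array 16 of the 102 lost their call, against 0 after quantile normalization. Fewer R-2HG arrays leave less power in such fits, and any other cause was not tested.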
